A study of Mus musculus with 10 samples.

Results

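Immediate early genes are transcribed within minutes of a stimulus without new protein synthesis, and several of them also respond to tissue handling and injury. The 10 genes described here were Fos, Fosb, Jun, Junb, Jund, Egr1, Nr4a1, Arc, Atf3 and Gadd45a, taken by symbol from a list. The list was made with earlier results of these data known. All 10 were present among the 23259 gene symbols of the deposited table. The libraries were made from retinal ganglion cells, whose axons form the optic nerve, of C57BL/6 mice at postnatal day 6. Satb1-/- mice carrying the Hb9-GFP reporter gave 5 libraries (knockout 1 to 5), and wild-type mice carrying the same reporter gave 5 libraries (wild-type 1 to 5), each from a different litter within its genotype. Satb1 is a chromatin organizer, and Hb9-GFP labels a direction-selective type of ganglion cell. Retinas were dissociated, GFP-positive cells were sorted into lysis buffer, and RNA of about 1000 cells was amplified as cDNA. Every library therefore passed through dissociation and sorting, and no library without these steps was among the samples.

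In neurons, calcium entry and growth factor signals reach these genes through kinases that phosphorylate CREB, which binds cyclic AMP response elements, and the partners of the serum response factor. Fos and Jun family proteins pair through leucine zippers to form the transcription factor AP-1. Egr1 is a zinc finger activator, Nr4a1 an orphan nuclear receptor, Arc a synaptic protein that controls AMPA receptor uptake, Atf3 a stress-induced member of the same zipper class, and Gadd45a a growth arrest protein induced by DNA damage. In ganglion cells, Jun and Atf3 are best known as genes induced by axon injury.

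The start regions of 4 members are shown because they span the patterns described here: Fos and Nr4a1 varied widely over libraries, Jun was the steadiest of the tested members, and Gadd45a had the largest difference between genotypes. Each is the 250 bases before the RefSeq start of the gene on its own strand (GRCm38.p6), at chr12:85473640-85473889 for Fos (plus strand), chr15:101266596-101266845 for Nr4a1 (plus strand), chr4:95052223-95052472 for Jun (minus strand) and chr6:67037408-67037657 for Gadd45a (minus strand). The RefSeq start differs from the outer end of the gene in the annotation used for the gene coordinates given with each member: the Nr4a1 window lies inside that gene, and the Gadd45a window overlaps its start. Capitals mark TGACG, the core of the cyclic AMP response element, on either strand.
Fos: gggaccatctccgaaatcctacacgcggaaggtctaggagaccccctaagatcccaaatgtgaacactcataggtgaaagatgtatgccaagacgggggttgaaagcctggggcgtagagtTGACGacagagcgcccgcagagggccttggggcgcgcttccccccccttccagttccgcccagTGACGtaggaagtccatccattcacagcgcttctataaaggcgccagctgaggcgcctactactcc
Nr4a1: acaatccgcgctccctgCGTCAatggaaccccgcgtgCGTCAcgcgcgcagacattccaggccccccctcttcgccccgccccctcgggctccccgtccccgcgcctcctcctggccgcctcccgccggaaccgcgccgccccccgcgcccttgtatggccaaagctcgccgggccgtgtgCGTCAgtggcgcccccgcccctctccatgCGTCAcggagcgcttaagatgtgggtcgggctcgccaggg
Jun: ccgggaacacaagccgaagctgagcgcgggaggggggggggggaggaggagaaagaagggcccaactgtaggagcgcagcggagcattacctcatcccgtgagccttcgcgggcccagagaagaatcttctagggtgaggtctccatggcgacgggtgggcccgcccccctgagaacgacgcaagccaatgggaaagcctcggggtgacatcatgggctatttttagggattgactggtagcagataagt
Gadd45a: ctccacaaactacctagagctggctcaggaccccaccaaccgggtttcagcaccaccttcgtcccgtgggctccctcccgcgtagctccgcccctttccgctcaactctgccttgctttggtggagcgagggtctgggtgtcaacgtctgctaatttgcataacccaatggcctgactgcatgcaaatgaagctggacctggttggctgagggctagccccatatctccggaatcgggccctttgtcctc
The core began 129 and 66 bases before the Fos start and 233, 213, 69 and 40 bases before the Nr4a1 start, and these letters were not in the Jun and Gadd45a windows. Promoter windows were found for 8 members, not for Egr1 and Arc. Among those not shown, the Atf3 window (chr1:191183334-191183583) lies inside the annotated gene. The Jund window ends at chr8:70697738, before the annotated start of Jund at 70698949. Of the 8 windows, 5 held TGACG (Fos, Fosb, Junb, Nr4a1 and Atf3), against 17.8% of 32851 RefSeq windows of the same length. The full element TGACGTCA, which contains the core, was in 0 of the 8 and in 1.55% of all windows. The AP-1 element TGANTCA was in 0 of the 8 and in 6.75% of all windows, and the CArG box of the serum response factor in 0 of the 8 and in 1.47%. The Egr site was in Fosb and Nr4a1 and in 3.06% of all windows. Both strands were searched, and a match in letters is a description of the sequence, not a measured binding site. Bases outside these windows were not searched, so a count of 0 does not mean that a gene lacks the element.

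Values are in TPM, which divides by transcript length and brings every library to a sum of 1000000, so levels may be compared between genes. Because the sum is fixed, a gene at an extreme level lowers the values of the others in its library. Tuba1a, a tubulin gene every neuron uses, was at 159316 TPM in wild-type 5. The part of such extremes in the members' values was not tested. The number of reads behind a TPM value is unknown here. Between 10073 and 12556 genes per library reached 1 TPM. Wild-type 5, knockout 4 and knockout 5 stood apart from the other 7 libraries on the first principal component (scores of 88 to 149 against at most -14.2). Wild-type 4 alone stood apart on the second component, at -145 against 6.88 to 43.5 in the others. A listed value of 0 may be a failed estimate, since Tuba1a, a tubulin gene every neuron uses, stood at 0 in 2 libraries, knockout 4 and 5. Of the members, 6 had a 0 in some library, and no mean is given for them. Satb1 itself was at 170, 126, 83.1, 34.9 and 24.1 TPM in knockout 1 to 5, against 304, 189, 414, 132 and 38.6 TPM in wild-type 1 to 5, so transcripts were found in all knockout libraries. Which part of the gene is missing is not given in the sources used here.

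No member passed the test between genotypes, and the libraries of each genotype spanned a wide range for most members. Differences are knockout minus wild-type on the log2(TPM + 1) scale, which understates the change of low genes. The test was limma, on genes that reached 1 TPM in 5 or more libraries. Of the 10 members 8 were tested, and Fosb and Arc were below this level. At a Benjamini-Hochberg adjusted p under 0.05, limma called 0 of the 8 and 0 of 11745 genes (0%). At an unadjusted p under 0.05 it counted 1 of the 8, Gadd45a, and 389 of all genes (3.31%). In 0 of the 8 were all knockout libraries on one side of all wild-type libraries, as was the case for 0.502% of all tested genes. The median difference over the 8 was 0.08, with 5 higher and 3 lower in knockout, beside a median of -0.31 over all tested genes, of which 67.4% were lower. Centring each library on its median moved the median of all genes to 0.07 and that of the members to 0.45, with 8 of 8 then higher. Without wild-type 3 the median of the members was -0.47, with 2 of 8 higher and 6 lower. The 3 members lower in knockout (Jund, Egr1 and Atf3) were thus higher after centring.

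**Figure D1:**
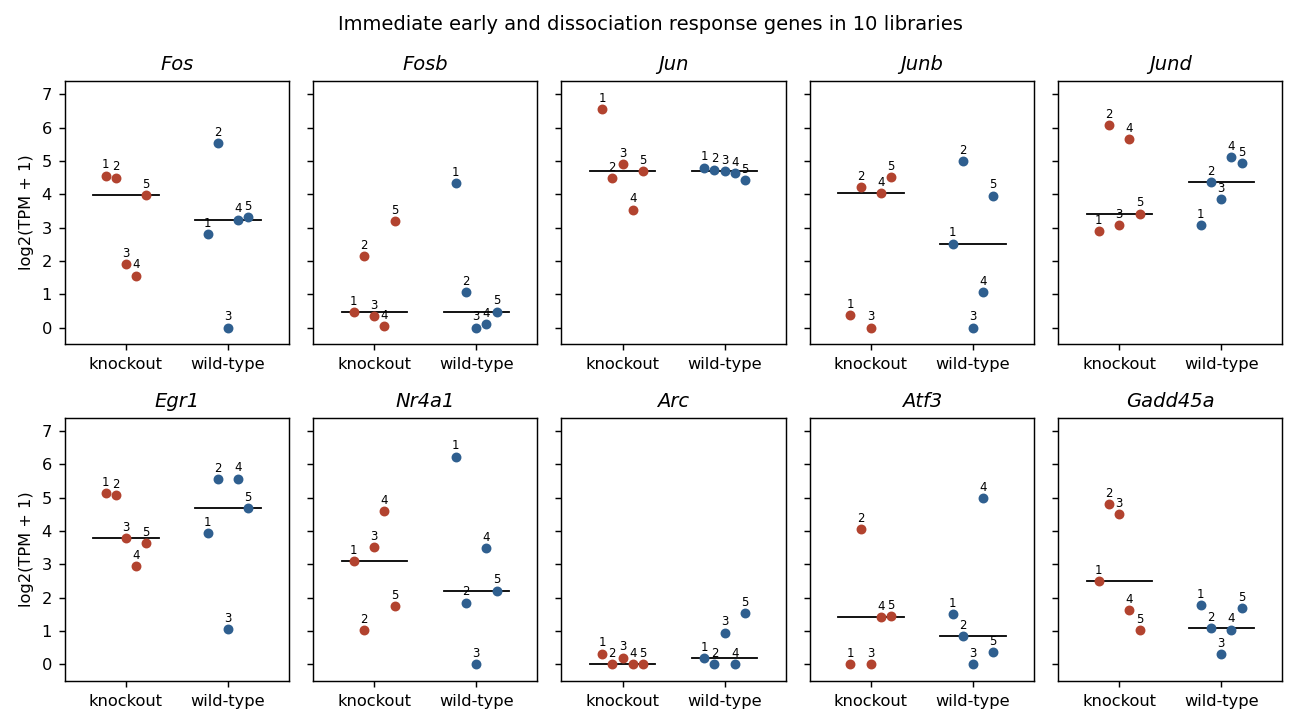
Level of each member in each library as log2(TPM + 1), with knockout libraries left and wild-type libraries right, numbered by replicate; the line is the median of 5 libraries. The genotypes overlap in every panel, and Jun in wild-type has the narrowest range of the tested members.

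Fos, the founding partner of AP-1 (mm10 chromosome 12, 85473890 to 85477273, plus strand), was at 22.6, 21.6, 2.74, 1.95 and 14.7 TPM in knockout 1 to 5, against 6.03, 45.1, 0, 8.45 and 9.02 TPM in wild-type 1 to 5. Its highest and lowest values were both in wild-type libraries, and the groups overlapped throughout. The log2 difference was 0.32 (SE 0.96, 95% interval -1.69 to 2.33; limma adjusted p = 0.992). Without wild-type 3, where Fos was listed at 0, the difference was -0.43. Fosb, a close relative that forms AP-1 dimers in the same way (chromosome 7, 19302696 to 19310051, minus strand), was at 0.381, 3.43, 0.271, 0.0275 and 8.15 TPM in knockout 1 to 5 and at 19.0, 1.08, 0, 0.0792 and 0.390 TPM in wild-type 1 to 5. It reached 1 TPM in 2 libraries of each genotype and was near 0 in the others, and wild-type 1 alone held 58.0% of its summed TPM. Without a filter on low values its difference was 0.04 (SE 0.93; limma adjusted p = 0.994).

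Jun, the founding member of the Jun side of AP-1 (chromosome 4, 95049034 to 95052222, minus strand), was the member with the highest median level, 24.9 TPM. It stood at 93.1, 21.3, 28.9, 10.6 and 24.7 TPM in knockout 1 to 5, against 26.9, 25.8, 25.1, 24.0 and 20.6 TPM in wild-type 1 to 5. The knockout values lay within an 8.75-fold range, set by knockout 1 at the top and knockout 4 at the bottom, and the wild-type values within a 1.30-fold range. The means were 35.7 ± 32.8 TPM in knockout and 24.5 ± 2.39 TPM in wild-type (SD, n = 5 each), and the log2 difference was 0.17 (SE 0.67; limma adjusted p = 0.992). Without knockout 1 it was -0.26. On the log2 scale the SD was 1.09 in knockout and 0.14 in wild-type. In knockout 44.0% of tested genes had a smaller SD than Jun, and in wild-type 0.0341% did. The difference in spread was seen in the values and was not tested.

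Junb and Jund are the other Jun proteins, of which Junb is induced by stimuli and Jund is made in resting cells. Junb (chromosome 8, 84974484 to 84978718, minus strand) was at 0.295, 17.5, 0, 15.3 and 22.0 TPM in knockout 1 to 5 and at 4.73, 30.9, 0, 1.10 and 14.6 TPM in wild-type 1 to 5. In each genotype some libraries were above 14 TPM and others near or at 0, and its log2 difference was 0.12 (SE 1.08; limma adjusted p = 0.993). Jund (chromosome 8, 70698949 to 70700616, plus strand) was at 6.48, 66.5, 7.39, 49.1 and 9.70 TPM in knockout 1 to 5 and at 7.44, 19.6, 13.4, 33.8 and 29.8 TPM in wild-type 1 to 5. It was above 6 TPM in every library, with knockout 2 and 4 highest and the other knockout libraries among the lowest. Its means were 27.8 ± 28.1 TPM in knockout and 20.8 ± 11.0 TPM in wild-type (SD, n = 5 each), with a log2 difference of -0.05 (SE 0.79; limma adjusted p = 0.998). In the annotation, 5 members overlap a gene on the opposite strand, and the use of strand in counting is not given in the sources used here. The partner of Junb, the peroxiredoxin gene Prdx2, was at 303 to 935 TPM in knockout and 231 to 941 TPM in wild-type. In knockout 3, where Junb was listed at 0, Prdx2 was at 872 TPM. The partner of Gadd45a, E230016M11Rik, was at 0.0271 to 4.96 TPM in knockout and 0.102 to 23.8 TPM in wild-type. The partners of Jun, Jund and Atf3 (Junos, Gm11175 and Gm24748) had no entry under these symbols in the deposited table, so no levels can be given.

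Egr1, which controls late response genes of neurons (chromosome 18, 34859823 to 34864984, plus strand), was at 34.3, 32.8, 12.8, 6.65 and 11.3 TPM in knockout 1 to 5, against 14.4, 46.3, 1.07, 46.5 and 24.9 TPM in wild-type 1 to 5. Wild-type 3 was the lowest of all, and the range was 5.15-fold within knockout and 43.5-fold within wild-type. The means were 19.6 ± 13.0 TPM in knockout and 26.6 ± 19.9 TPM in wild-type (SD, n = 5 each). The log2 difference of Egr1 was -0.05 (SE 0.86, limma adjusted p = 0.998), with -0.83 without wild-type 3 and 0.30 without wild-type 4. Nr4a1 (chromosome 15, 101254269 to 101274795, plus strand) was at 7.48, 1.02, 10.5, 23.3 and 2.34 TPM in knockout 1 to 5 and at 74.3, 2.60, 0, 10.2 and 3.62 TPM in wild-type 1 to 5. Wild-type 1 held 54.9% of its summed TPM, and wild-type 3 was at 0. The log2 difference was 0.04 (SE 1.01; limma adjusted p = 0.998), and -0.65 without wild-type 3. Arc (chromosome 15, 74669083 to 74672570, minus strand) was at 0.250 and 0.150 TPM in knockout 1 and 3, with 0 listed for the other 3 knockout libraries. Its level was 0.145, 0.936 and 1.90 TPM in wild-type 1, 3 and 5, with 0 listed for wild-type 2 and 4. Only wild-type 5 reached 1 TPM. Without a filter its difference was -0.43 (SE 0.28; limma adjusted p = 0.894).

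Atf3 (chromosome 1, 191170296 to 191218039, minus strand) was at 0, 15.6, 0, 1.65 and 1.74 TPM in knockout 1 to 5, against 1.82, 0.784, 0, 30.7 and 0.289 TPM in wild-type 1 to 5. A single library of each genotype, knockout 2 and wild-type 4, was far above the others, and the log2 difference was -0.15 (SE 0.92; limma adjusted p = 0.992), and 0.71 without wild-type 4. Gadd45a (chromosome 6, 67035096 to 67037457, minus strand) was at 4.62, 26.8, 21.6, 2.09 and 1.02 TPM in knockout 1 to 5 and at 2.43, 1.13, 0.230, 1.05 and 2.24 TPM in wild-type 1 to 5. Knockout 1, 2 and 3 were above all wild-type libraries, while knockout 4 and 5, which lie apart on the first component, were within the wild-type range. The means were 11.2 ± 12.1 TPM in knockout and 1.42 ± 0.912 TPM in wild-type (SD, n = 5 each). The log2 difference of 1.71 (SE 0.80, 95% interval 0.05 to 3.37) had an unadjusted limma p of 0.0445 and an adjusted p of 0.992, so it did not pass. Its difference ran from 1.23 to 2.17 with each library left out in turn. Without the 3 libraries apart (wild-type 5, knockout 4 and knockout 5) it was 2.88, with an unadjusted limma p of 0.0049 and an adjusted p of 0.988. Of the variance of Gadd45a over libraries, 36.1% lay between the genotype means, and in the other tested members 0.0117% to 1.41% did. Gadd45a is the member with the largest difference, and this share was neither tested nor set beside that of all genes.

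**Figure D2:**
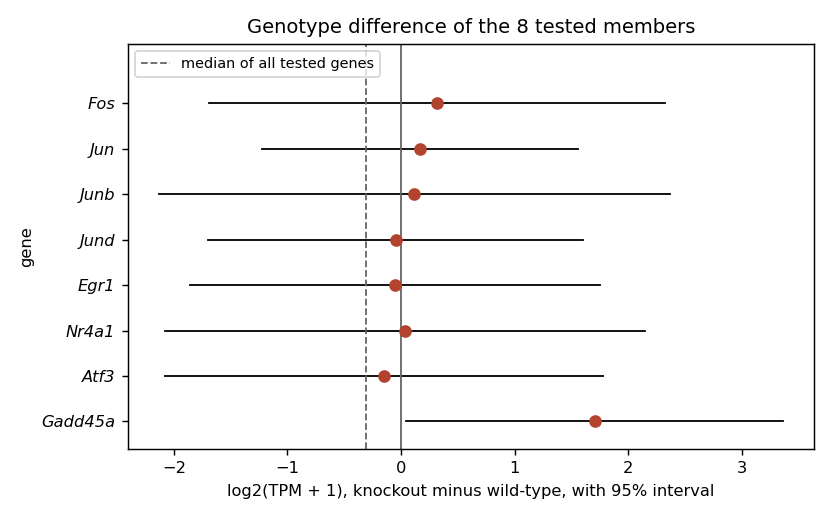
Knockout minus wild-type difference of the 8 tested members on the log2(TPM + 1) scale, with 95% limma intervals; the dashed line is the median of all tested genes, -0.31. Only the interval of Gadd45a lies above 0, before adjustment for the number of genes.

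Over the 10 libraries, most members varied more than a typical gene. The median SD on the log2(TPM + 1) scale was 1.57 over the 8 tested members and 1.20 over all tested genes, and the median level was 9.20 TPM for the members and 14.2 TPM for all tested genes. In the lists described below, the median SD was 1.23 over 20 other tested immediate early genes, 1.21 over injury response genes and 1.10 over heat shock genes. The other immediate early genes were thus near all tested genes in spread. Junb had the largest SD, 2.02, larger than in 94.8% of all tested genes and in 91.2% of the 500 genes nearest in mean level. Nr4a1 followed at 1.81 (90.2% and 85.2%), then Atf3 at 1.74 (88.1% and 95.8%) and Fos at 1.64 (84.2% and 76.6%). Junb, Nr4a1, Atf3 and Fos were also the tested members with a listed 0, in 2, 1, 3 and 1 libraries. Such a 0 may be a failed estimate, and its part in their SD was not tested. Gadd45a at 1.50 (76.7% and 68.6%), Egr1 at 1.40 (69.5% and 66.2%) and Jund at 1.15 (45.0% and 39.4%) were nearer the middle. Jun at 0.74 (9.02% and 6.6%) was among the steadiest genes of its level, although its SD in knockout was not.

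**Figure D3:**
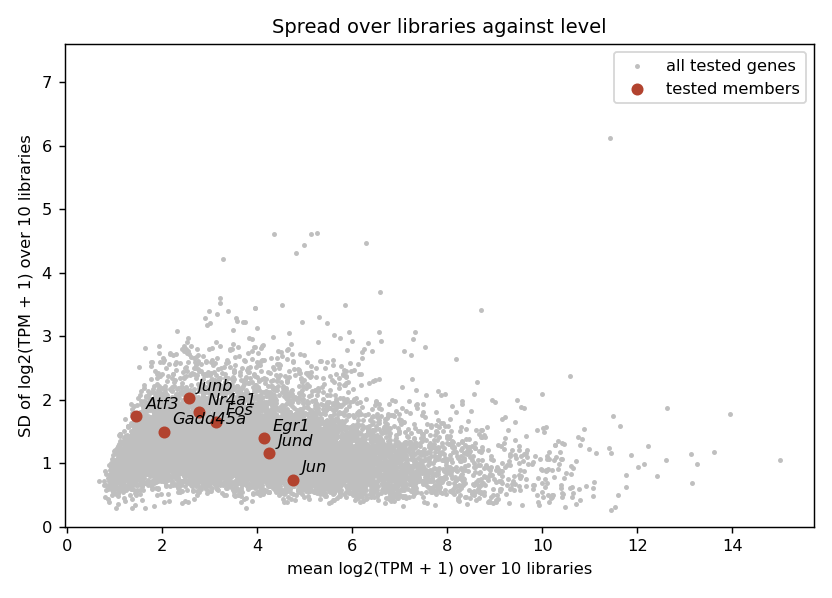
SD against mean of log2(TPM + 1) over the 10 libraries, with all 11745 tested genes in grey and the 8 tested members in red. Junb, Nr4a1, Atf3 and Fos lie in the upper part of the cloud at their level and Jun in the lower part.

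The libraries in which members were high differed from member to member. The summed level of the 10 members was 170, 207, 84.4, 111 and 95.7 TPM in knockout 1 to 5 and 157, 173, 40.7, 156 and 107 TPM in wild-type 1 to 5. Knockout 2 had the highest sum, and was among the 3 highest libraries for 6 members. Wild-type 1 was highest for Fosb and Nr4a1, wild-type 2 for Fos and Junb, wild-type 4 for Egr1 and Atf3, and knockout 2 for Jund and Gadd45a. Wild-type 3 had the lowest sum. In that library 5 members were listed at 0 (Fos, Fosb, Junb, Nr4a1 and Atf3), and it was alone the lowest for 4 of the 8 tested members (50%), against 7.64% of all tested genes. Wild-type 3 was picked by these same member values, so a high share follows in part from the choice and is no test. Jun was at 25.1 TPM and Jund at 13.4 TPM in the same library, within the range of the others.

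**Figure D4:**
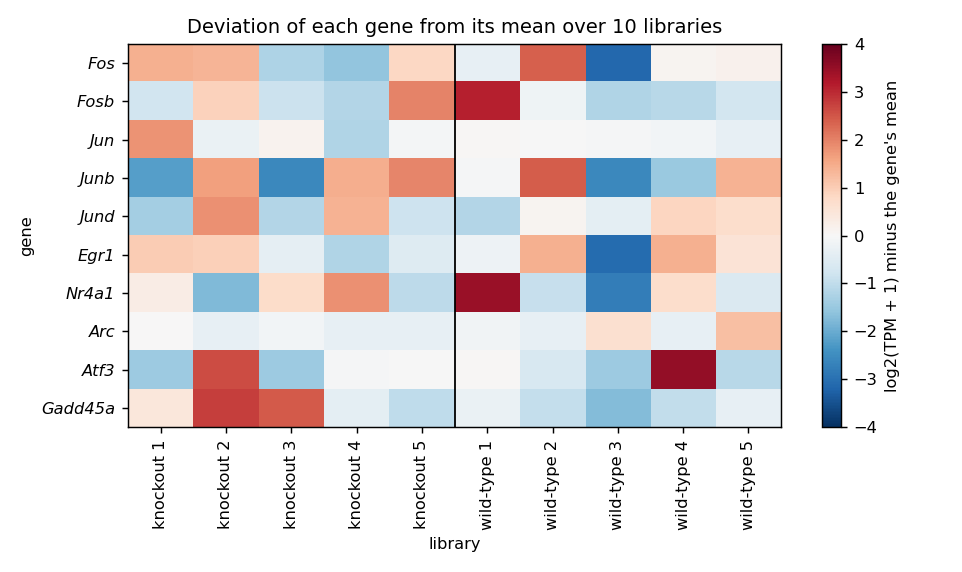
Deviation of log2(TPM + 1) from each member's own mean, with members in rows and knockout libraries left of wild-type libraries (black line). Wild-type 3 is low for Fos, Egr1, Nr4a1 and Junb, while high values (red) fall in different libraries for different members.

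Markers of microglia, the resident immune cells of the retina, were also low in wild-type 3. The 18 microglia and macrophage genes summed to 41.6 TPM there, with 6 of them listed at 0, including C1qa and C1qb of the complement, against 445 to 4745 TPM in the other 9 libraries. Over the genotypes this sum was 445 to 4745 TPM in knockout and 41.6 to 3384 TPM in wild-type. Knockout 2 had the highest sum of these markers as well as of the members. Knockout 1 had the next to lowest marker sum, with Fos at 22.6 TPM and Jun at 93.1 TPM. Knockout 5 had the next to highest marker sum, 3844 TPM, with a member sum of 95.7 TPM. The part of these cells in the members' levels was not tested, and in sorted pools fewer cells of a type and less RNA per cell cannot be told apart. The 14 ganglion cell markers summed to 27529 TPM in wild-type 3 and to 12366 to 100002 TPM in the others, and most of this sum was the neurofilament gene Nefl in knockout 3 (94381 TPM) and in wild-type 3 (19151 TPM). Pou4f1, a transcription factor gene of ganglion cells, was at 72.7, 39.6 and 37.4 TPM in knockout 4, knockout 5 and wild-type 5, and at 194 to 371 TPM in the other 7 libraries. The ganglion cell markers did not all go this way. Thy1 of the same list was at 2105, 1397 and 1969 TPM in knockout 4, knockout 5 and wild-type 5, and at 705 to 1329 TPM in the other 7. The list of 8 direction-selective markers, which holds Satb1, summed to 144 to 481 TPM in knockout and 722 to 1589 TPM in wild-type, without overlap, and wild-type 3 was the highest. In wild-type 5, Cartpt alone gave 501 of the 722 TPM. Singly, Cartpt (1.63 to 47.3 TPM in knockout, 56.8 to 843 TPM in wild-type) and Cntn5 (1.06 to 3.32 and 9.37 to 135 TPM) did not overlap. Mnx1, Fstl4, Cdh6, Mmp17, Col25a1 and Satb1 overlapped between the genotypes. All 8 were lower in knockout, 4 of them at an unadjusted limma p under 0.05, and 0 passed after adjustment (lowest adjusted p = 0.134). The part of this marker difference in the members' values was not tested.

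Egr1 was the member that followed Fos most closely across libraries. Of 9 relations to Fos over the 10 libraries, on the log2(TPM + 1) scale, only that of Egr1 passed, with Pearson r = 0.87 (two-sided permutation p = 0.00134, Benjamini-Hochberg adjusted p = 0.0121 over the 9). Spearman rho was 0.72 (permutation p = 0.0242, adjusted p = 0.218), so the rank measure did not pass after adjustment. Without wild-type 3 and wild-type 2, the libraries farthest from the median of Fos, r was 0.67 in the other 8 (exact permutation p = 0.0727), so the relation rests in part on those libraries. Within the 7 libraries that exclude wild-type 5, knockout 4 and knockout 5, r was 0.91 (exact permutation p = 0.00655) and rho was 0.79. These 7 still include wild-type 2 and wild-type 3, so this value is no check on that pair. Junb had r = 0.52 and rho = 0.58 (permutation p = 0.123 and 0.0852, adjusted p = 0.553 and 0.264), and r was 0.12 without the same pair of libraries. Fosb had r = 0.31 and rho = 0.58 (permutation p = 0.382 and 0.0879, adjusted p = 0.687 and 0.264). Nr4a1, another gene of rapid induction, had r = -0.05 and rho = -0.28 (permutation p = 0.896 and 0.426, adjusted p = 0.896 and 0.739). Without that pair its r was -0.63 (exact permutation p = 0.0922), and within genotypes, over 5 libraries each and with no test, it was -0.80 in knockout and 0.29 in wild-type. For Jun, Jund, Arc, Atf3 and Gadd45a r ran from -0.33 to 0.36, with adjusted permutation p of 0.687 to 0.896.

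**Figure D5:**
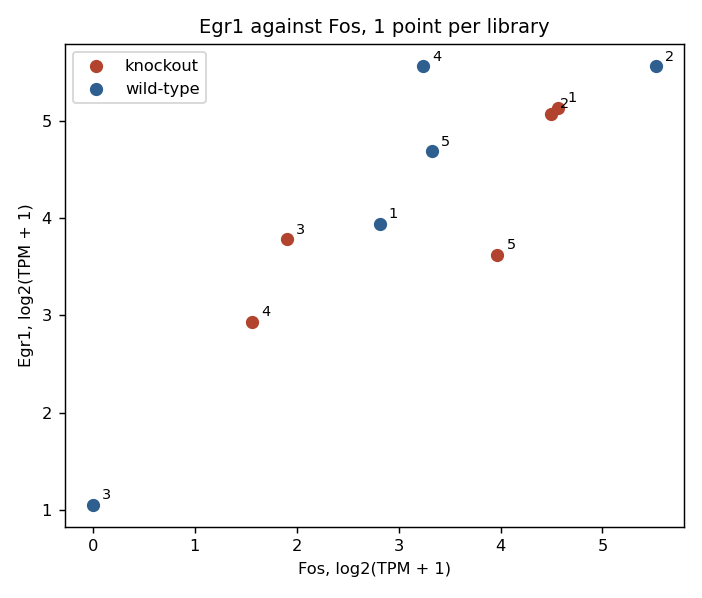
Egr1 against Fos, both as log2(TPM + 1), with 1 point per library numbered by replicate (knockout red, wild-type blue). Pearson r is 0.87 over all 10 libraries and 0.67 without wild-type 2 and wild-type 3, the points at the upper right and lower left.

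By rank over the 10 libraries, the genes outside the list whose pattern was most like that of Fos, among 10669 candidates, were Crls1, the cardiolipin synthase gene (Spearman rho = 0.89), Enox (0.87), the membrane protease gene Adam17 (0.85), Hsd3b7, an enzyme gene of bile acid synthesis (0.85), and Aarsd1 (0.84). These are the top of a long ranking over few libraries and are given as a description. Crls1 was at 9.70, 13.6, 2.13, 2.53 and 3.59 TPM in knockout 1 to 5 and at 4.81, 19.5, 1.42, 2.90 and 2.88 TPM in wild-type 1 to 5.

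Among 36 other immediate early genes, 20 were tested, and limma called 0 higher and 0 lower, with 0 at an unadjusted p under 0.05. Knockout was higher for 6 of the 20 and lower for 14, with a median log2 difference of -0.19. Those with the highest median levels were Vgf, a neuropeptide precursor gene (58.2 TPM), the phosphatase gene Dusp1, which switches off MAP kinases (37.0 TPM), and Nptx2, a secreted pentraxin gene of synapses (30.1 TPM). Vgf was at 93.0 ± 64.4 TPM in knockout and 50.4 ± 48.6 TPM in wild-type (log2 difference 1.25), Dusp1 at 34.6 ± 27.6 and 51.6 ± 33.9 TPM (-0.69), and Nptx2 at 89.6 ± 90.0 and 56.4 ± 46.1 TPM (0.30), each as SD with n = 5. The zinc finger genes Klf10 and Klf6 had the next smallest p after Vgf. Klf10 was at 2.43 ± 0.342 TPM in knockout and 7.02 ± 6.52 TPM in wild-type (-0.89), and Klf6 at 17.4 ± 16.5 and 30.6 ± 17.1 TPM (-0.91). The limma adjusted p was 0.992 for all 5.

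In wild-type 3, the library in which the members' sum was lowest, genes of this list were at both extremes; those named here were singled out after their values were seen. Of the 20 tested, 5 were alone the lowest there (25%, against 7.64% of all tested genes): Ier5 and Zfp36, listed at 0, Btg2 at 0.348 TPM, Klf10 at 1.97 TPM and Vgf at 4.44 TPM. Alone the highest there was 1 of the 20 (5%, against 12.4% of all tested genes), Ier3, at 25.9 TPM against 0.255 to 14.9 TPM in the others. Among the genes below the level for testing, 3 relatives of members were highest in wild-type 3. In wild-type 3 Gadd45b reached 34.0 TPM, and in wild-type 5 it was at 0.433 TPM, with 0 listed for the other 8 libraries, whereas Gadd45a was at 0.230 TPM in wild-type 3. Nr4a2 was at 33.7 TPM and Nr4a3 at 16.3 TPM in wild-type 3, against at most 5.25 and 1.35 TPM elsewhere, whereas Nr4a1 was listed at 0. Other genes of the list peaked elsewhere: Egr4 was at 60.1 TPM and Egr2 at 8.55 TPM in knockout 4, while Ier2 was at 144.9 TPM and Zfp36, which destabilizes mRNAs, at 201 TPM in wild-type 4.

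Of 32 genes of the pathways upstream, 31 were tested, and limma called 0 of them (0 at an unadjusted p under 0.05). Knockout was higher for 6 of the 31 and lower for 25, with a median of -0.55 beside -0.31 for all tested genes. The kinase genes Mapk3 (ERK1) and Mapk9 (JNK2) were among those with the highest medians, 111 and 110 TPM. Mapk3 was at 93.5 ± 43.9 TPM in knockout and 139 ± 89.3 TPM in wild-type (SD, n = 5 each; log2 difference -0.35, limma adjusted p = 0.992). The smallest p values belonged to Crtc1, a CREB coactivator gene, at 26.4 ± 19.3 TPM in knockout and 89.2 ± 103 TPM in wild-type (-1.50), and Elk4, a partner of the serum response factor, at 3.43 ± 2.48 and 12.8 ± 8.88 TPM (-1.56; SD, n = 5 each). Their unadjusted limma p were 0.0506 and 0.0521, and their adjusted p 0.992.

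Of 13 partners and inhibitors of the members, 9 were tested and 0 called (0 at an unadjusted p under 0.05), with 2 higher and 7 lower. The stress-response factor gene Atf4, whose protein pairs with AP-1 proteins, had the highest median, 209 TPM. It was at 316 ± 199 TPM in knockout and 181 ± 157 TPM in wild-type (SD, n = 5 each; log2 difference 1.22, limma adjusted p = 0.992). Of 20 injury response genes, 15 were tested and 0 called, with 7 higher and 8 lower and 1 at an unadjusted p under 0.05. That gene was the neuropeptide gene Npy, at 1002 ± 314 TPM in knockout and 464 ± 326 TPM in wild-type (1.30). Ddit3, a stress-induced factor that can pair with Atf3, was at 0.577 to 83.0 TPM in knockout and 10.2 to 690.1 TPM in wild-type, with wild-type 2 at the top (-2.18). The limma adjusted p was 0.992 for both. Of 12 heat shock genes, 11 were tested and 0 called (0 at an unadjusted p under 0.05), with 6 higher and 5 lower in knockout. The constitutive gene Hspa8 had the highest median of the 12, 1697 TPM.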

How the data were processed

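The 10 libraries were sequenced from single ends. The deposited table holds log10(TPM + 1) values, made by the authors; log base and offset were read from the values, since each library summed to 1000000 TPM after back-transformation. The submitters' processing notes name TopHat2 2.0.10, Cufflinks and mm10. How reads were counted, with which annotation, and whether strand was used is not given in the sources used here. Of 23746 entries, 25 held a number in place of a symbol (0.044% to 0.198% of TPM) and were left out, and 240 repeated symbols were summed, none of them a member.

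Values were converted to log2(TPM + 1), and the 11745 genes that reached 1 TPM in 5 or more libraries entered limma 3.58.1 in R 4.3.3 (genotype as the only term, mean-variance trend, Benjamini-Hochberg threshold of 0.05), after the fit was tested on simulated data. Relations to Fos used 100000 permutations, or all of them for fewer than 10 libraries (numpy 2.4.6, scipy 1.17.1). Coordinates are from GENCODE M21 (mm10). The members and lists were chosen with earlier results of these data known. All members are named; of other lists, up to 3 genes with the smallest p or highest median, and further genes chosen after their values were seen, for their extremes in single libraries. A gene of the upstream list stayed in the counts and is not reported here. Marker lists for ganglion cells, direction-selective cells and microglia and macrophages were summed in TPM. Alternatives covered the pseudocount, the filter, scaling, a replicate block, library weights and libraries left out.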

Additional observations from a re-analysis of the deposited data

Results flagged for a closer look

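Fosb was at 19.0 TPM in wild-type 1, and the gap to the next wild-type library took 0.756 of the range of that genotype on the log2(TPM + 1) scale, above the critical value of 0.71 of Dixon's test for 5 samples. Over the 10 members and both genotypes 20 groups were examined and 1 was picked out, where chance gives about 1 in 20. Fosb was not among the genes tested between genotypes.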

How the results depend on the processing

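Across 18 alternative fits limma called 0 members. Over all genes it called 0, except for 1 under a filter of 5 TPM in 5 or more libraries (Rpp25), 3 with library weights (Cartpt, Rpp25 and Scarna3b), and 0 to 1 with each library left out (Rpp25 without wild-type 3, Cartpt without wild-type 4, Scarna3b without wild-type 5). The median difference of the members ran from -0.47 (without wild-type 3) to 0.26 with each library left out. Gadd45a was higher in knockout in all 17 fits that tested it, with an unadjusted p under 0.05 in 9 of the 17 and an adjusted p of at least 0.651. Of 142 member values, 42 changed sign; the cause was not tested. The signs changed with a pseudocount of 0.1 for Egr1 (0.060) and Junb (-0.031). With median centring they changed for Atf3 (0.22), Egr1 (0.32) and Jund (0.33), and with quantile normalization for the same genes (0.28, 0.20 and 0.35). With library weights they changed for Atf3 (0.14), Fos (-0.37), Junb (-0.74) and Jund (0.18). Without wild-type 5, knockout 4 and knockout 5 they changed for Egr1 (0.64), Junb (-0.62) and Nr4a1 (-0.35). With each library left out in turn the log2 differences ran from -0.82 to 0.71 for Atf3, -0.83 to 0.30 for Egr1, -0.43 to 0.95 for Fos, -0.26 to 0.49 for Jun, -0.51 to 0.77 for Junb, -0.51 to 0.28 for Jund and -0.65 to 0.91 for Nr4a1.

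The labels do not say that same-numbered libraries of the genotypes belong together. The correlation of their deviations from the genotype means was 0.22, 0.07, 0.13, -0.03 and 0.36 for numbers 1 to 5, so 3 of the 5 pairs were above 0.1, and not every library correlated best with its own number. The numbers were therefore not used as pairs, and whether some libraries are paired was not settled. With a replicate block limma called 0 genes and 0 members, 829 genes had an unadjusted p under 0.05 (389 without the block), the median SE was 0.60, and the member median stayed 0.08. The numbers in the table are TPM without read depth, so no detection limit could be set for members listed at 0. With a median SE of 0.78 on the log2 scale, differences of 2-fold to 4-fold were mostly not detectable here, and larger ones may be missed as well. The genes called in alternative fits differed by -5.15 to -4.47 (Rpp25 and Cartpt) or 4.48 to 4.79 (Scarna3b) on that scale.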
